A study of Homo sapiens with 6 samples.

Results

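The genes described here encode the ligands and receptors of the tumor necrosis factor (TNF) superfamily, the TRAF adaptors, and the adaptors TRADD and FADD and the kinase RIPK2. They were read in HL60, an established human promyelocytic leukemia line, on Affymetrix HG-U133A arrays. Members were chosen by a rule on gene names, set with earlier results of these data known. A probe set was taken if it was annotated to exactly one gene whose symbol began with TNFSF, TNFRSF or TRAF and a digit, or was among 15 further symbols of the same system. This gave 75 probe sets for 46 genes out of 22283 probe sets on the array. The letters of the rule also took in TRAF3IP1, TRAF3IP2 and TRAF3IP3, which bind TRAF proteins or share their pathways but are not TRAFs. CD40LG and RIPK1, also named in the rule, are not analysed here. Another 7 probe sets were annotated to a member and to a second gene, and were left out. Cells received 1 μmol/l tretinoin, the all-trans retinoic acid that binds retinoic acid receptors, or its solvent dimethyl sulfoxide (DMSO) alone. Both groups were in 0.1% DMSO for 5 days, so the solvent is shared by all arrays. There were 3 arrays per condition. By a legend of the study these were parallel hybridizations of pooled labeled product, so that every p-value below measures the spread between hybridizations and not between cultures.

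Ligands of this superfamily are mostly trimeric membrane proteins, some of them also shed, and each binds one or a few receptors. Receptors with a death domain recruit TRADD or FADD and can start caspase activation, whereas the others recruit TRAF proteins directly and lead chiefly to NF-κB and MAP kinase signaling. Decoy receptors bind ligand without passing on a signal. Monocytes and neutrophils are well known both as sources and as targets of TNF.

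Signals are MAS5 intensities multiplied to equal mean per array, with values below 20 set to 20, a level called the floor. Mean signal before scaling was 91.3 to 152 per array, and 54.9% to 60.1% of probe sets exceeded 20 after it. ACTB, whose signal near the 3' end over that near the 5' end reports RNA quality, had ratios of 1.38 to 1.42 on DMSO arrays and 1.14 to 1.17 on tretinoin arrays. The same ratio for GAPDH was 1.06 to 1.17 on DMSO arrays and 1.15 to 1.19 on tretinoin arrays, so the conditions overlapped. Their part in the results below was not tested. All 6 measured promyelocyte markers fell and all 5 markers of the retinoid response rose. Among 5 markers of monocytes and macrophages, 4 rose, and their summed signal was 173 to 189 in DMSO and 849.97 to 871 in tretinoin. None of the tested markers of T cells (3 of 5 tested), B cells (2 of 3), erythroid cells (1 of 2) or megakaryocytes (3 of 4) passed, and among 4 markers of NK cells NKG7 rose. The part of these markers in the results was not tested. With RNA from bulk cultures, fewer cells of a kind and less RNA per cell cannot be told apart.

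Promoters of 3 members that rose are shown because they hold the κB consensus matches found among the members called higher. The κB consensus describes the DNA element read by NF-κB. The promoter of TNF is shown beside them. All are RefSeq sequences of GRCh38.p14, the 250 bases before each gene's start. They are printed 5′ to 3′ on the gene's strand, with κB matches on either strand in capitals. TNFRSF9 lies on the minus strand at chr1:7940840-7941089, LTB on the minus strand at chr6:31582426-31582675, TNFRSF14 on the plus strand at chr1:2556121-2556370 and TNF on the plus strand at chr6:31575315-31575564.
TNFRSF9: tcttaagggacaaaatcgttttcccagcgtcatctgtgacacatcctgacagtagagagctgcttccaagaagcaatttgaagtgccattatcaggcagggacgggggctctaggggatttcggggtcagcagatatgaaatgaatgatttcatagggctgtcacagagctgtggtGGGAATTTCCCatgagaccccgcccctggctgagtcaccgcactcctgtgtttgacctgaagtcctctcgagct
LTB: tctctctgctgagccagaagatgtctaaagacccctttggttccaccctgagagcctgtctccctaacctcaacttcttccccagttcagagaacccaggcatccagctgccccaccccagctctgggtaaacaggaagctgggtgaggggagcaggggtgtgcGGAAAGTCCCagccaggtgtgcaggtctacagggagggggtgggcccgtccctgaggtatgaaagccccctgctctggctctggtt
TNFRSF14: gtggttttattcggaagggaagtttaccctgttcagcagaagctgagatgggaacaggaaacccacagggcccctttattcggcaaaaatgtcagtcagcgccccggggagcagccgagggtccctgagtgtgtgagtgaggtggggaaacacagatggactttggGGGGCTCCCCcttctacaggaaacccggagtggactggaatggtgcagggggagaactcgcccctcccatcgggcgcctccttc
TNF: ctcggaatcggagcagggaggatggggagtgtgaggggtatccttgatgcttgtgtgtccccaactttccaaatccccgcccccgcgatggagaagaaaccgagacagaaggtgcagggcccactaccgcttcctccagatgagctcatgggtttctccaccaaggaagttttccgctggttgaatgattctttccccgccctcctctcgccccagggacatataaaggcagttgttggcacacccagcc
In TNFRSF9, 2 overlapping matches on opposite strands span bases -74 to -64 from the start site, and the matches lie at -86 to -77 in LTB and -84 to -75 in TNFRSF14. TNF held no match to this consensus in this window, and sites that depart from it were not searched for. Windows that ran on to 50 bases after the start were held for 33 of the 46 genes, of which 6 (18.2%) contained a match, against 5.72% of all 27305 windows of that length. The other matches were in TNFRSF25, TRAF3 and TNFSF14, which were not called. Among the 15 genes with a called probe set, 11 promoters were held and 3 (27.3%) matched. A direct repeat of AGGTCA with 5 bases between, a form of the element bound by retinoic acid receptors, was in 0 of the 33 and in 1 promoter of the whole table. The single AGGTCA was in 1 member promoter (3.03%), that of TNFRSF9, and in 13.9% of all. These are matches of letters only.

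Of the 75 member probe sets, 39, from 31 genes, exceeded 20 on at least 3 arrays and were tested. By limma over all 13374 tested probe sets, 13 were higher in tretinoin, where the background was 13.6%, and 4 were lower, where it was 13.8%. Calls required both an adjusted p below 0.05 and a fitted difference of 1.5-fold or more. The arrays of the conditions did not overlap for 19 of the 39, close to the background of 46.0%. The median log2 fold change was 0.24 over the tested members and -0.03 over all tested probe sets. The filter itself shapes these counts. All 4 member probe sets that were below 20 on every DMSO array, and so were tested through their tretinoin arrays alone, were among those called higher, and over the whole array 198 of 272 such probe sets were called. Of 3 members tested through DMSO arrays alone (TNFSF13, TNFRSF21 and TRAF4) the first 2 were called lower, against 125 called of 231 over the whole array. Among the 20 member probe sets above 20 on all 6 arrays, 5 were higher and 1 was lower, or 6 called in all against a background of 30.4%. Counted once per gene by its brightest probe set, 10 genes were higher (background 13.6%) and 3 lower (14.4%) of 31 tested. As deposited, without scaling, which moved the median log2 fold change of all probe sets from -0.03 to -0.21, the split of member probe sets was 10 higher and 6 lower. Without tretinoin replicate 2 it was 8 higher and 6 lower, and without DMSO replicate 1, 2 or 3 the number lower was 1, 2 and 1. Leaving out any DMSO array took TNFSF13 and TNFRSF21 out of the test, since only their DMSO arrays exceeded 20. With a floor of 40, the calls of LTB, TNFSF13, TNFRSF21, CD40, TNFRSF14, TRAF6, TRADD and the brightest TNFRSF10B probe set were lost.

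**Figure D1:**
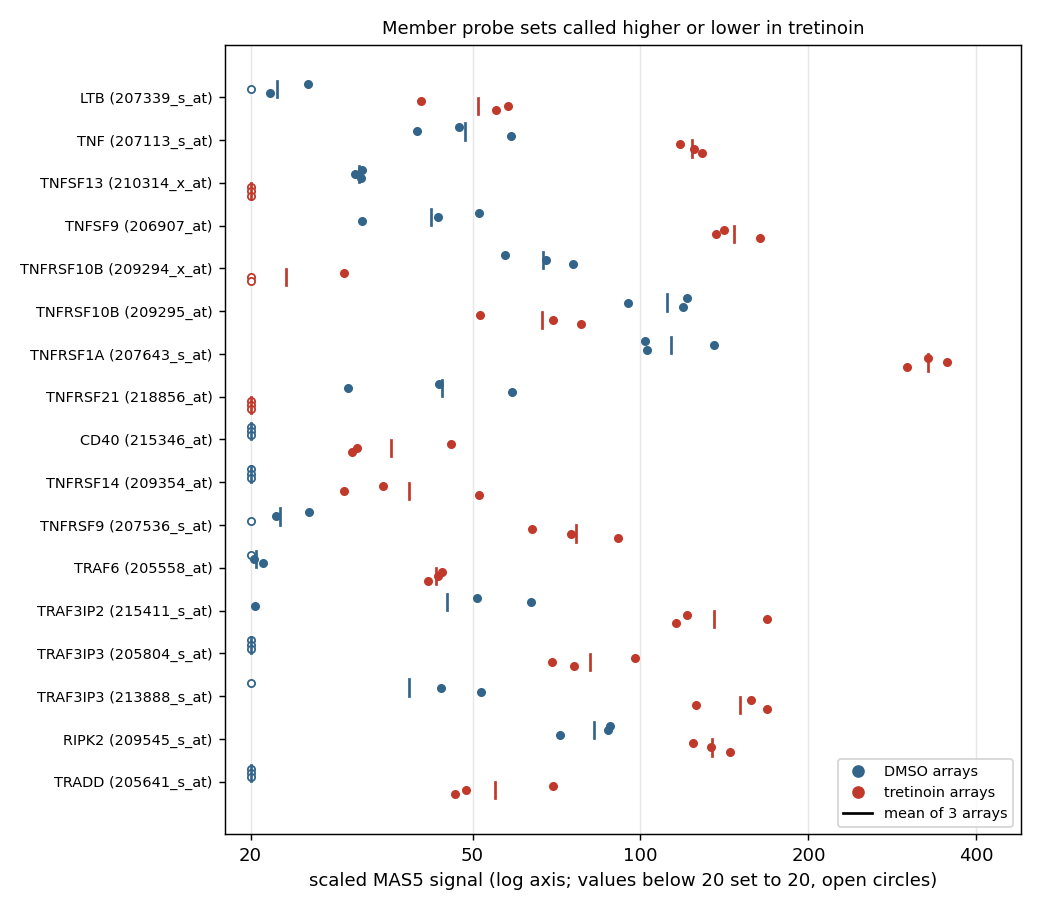
Scaled MAS5 signal on each array (log axis) for the 17 member probe sets called higher or lower, with DMSO arrays in blue, tretinoin arrays in red, bars at the means of 3 arrays and open circles for values set to the floor of 20. The conditions do not overlap in any row, and TRAF3IP3, TNFRSF14, CD40 and TRADD each have a row in which every DMSO array lies at the floor.

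Among ligands, TNFSF9, TNF and LTB rose and TNFSF13 fell, out of 9 ligand genes tested. TNFSF9, also called CD137 ligand, costimulates T cells. Its probe set (206907_at) read 51.3, 43.4 and 31.7 on DMSO arrays 1 to 3 and 141, 136 and 164 on tretinoin arrays 1 to 3. Every tretinoin array was above every DMSO array, by a wide margin relative to the spread. The rise was 3.49-fold, from 42.1 ± 9.84 to 147 ± 14.6 (SD, n = 3 arrays each), with a log2 fold change of 1.83 ± 0.20 (SE) and an adjusted p of 0.000600 by limma. TNF, the founding inflammatory cytokine of the family (207113_s_at), read 47.2, 39.7 and 58.7 in DMSO and 118, 125 and 129 in tretinoin. The conditions again did not overlap, and the rise was 2.55-fold with a log2 fold change of 1.37 ± 0.17 and an adjusted p of 0.00103. LTB, the membrane subunit of lymphotoxin (207339_s_at), read 25.4, below 20 and 21.7 in DMSO and 40.5, 58.0 and 55.2 in tretinoin. It was at least 2.29-fold higher (adjusted p = 0.00276), since 1 DMSO array was at the floor. With the floor raised to 40 its call was lost (adjusted p = 0.213).

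TNFSF13, or APRIL, a ligand known for sustaining plasma cells (210314_x_at), read 31.7, 30.8 and 31.6 in DMSO and was below 20 on all 3 tretinoin arrays. It was at least 1.57-fold lower (adjusted p = 0.00451). The remaining tested ligands did not pass. CD70, the partner of CD27, read 36.0, below 20 and 52.7 in DMSO and 50.6, 48.7 and 45.5 in tretinoin, so the conditions overlapped. TNFSF4 had a log2 fold change of 0.52 ± 0.20 (adjusted p = 0.0903) and TNFSF8 one of 0.33 ± 0.17 (adjusted p = 0.195). FASLG, the ligand of FAS, had values of -0.000476 and -0.03 on its 2 probe sets, and TNFSF18 one of 0.01, all of which took the opposite sign under other settings, scaling included for the first of FASLG and for TNFSF18. LTA, TNFSF10, TNFSF11, TNFSF14 and TNFSF15 had no tested probe set, and no array of theirs exceeded 24.0.

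On the chromosome, TNF lies directly between LTA and LTB, counting protein-coding genes of the RefSeq table. Of these 3 neighbors TNF and LTB rose, whereas the LTA probe set was below 20 on every array. TNFSF9, CD70 and TNFSF14 also follow each other with no protein-coding gene between, and of these only TNFSF9 was called.

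The death domain receptors moved both ways. TNFRSF1A rose, TNFRSF10B and TNFRSF21 fell, and TNFRSF25 and FAS did not pass. TNFRSF1A, the main signaling receptor for TNF (207643_s_at), read 102, 135 and 103 in DMSO and 327, 355 and 300.5 in tretinoin. The lowest tretinoin array was over all DMSO arrays, and the rise was 2.89-fold, from 113 ± 19.1 to 328 ± 27.3, with a log2 fold change of 1.54 ± 0.16 and an adjusted p of 0.000490. TNFRSF21, a death domain receptor of neurons and lymphocytes (218856_at), read 43.6, 29.9 and 58.7 in DMSO and stayed below 20 on all tretinoin arrays. It was at least 2.20-fold lower (adjusted p = 0.0128). That call was lost with the floor at 40 (adjusted p = 0.440) and without the filter on low signals (adjusted p = 0.0742).

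TNFRSF10B, a receptor for the apoptosis ligand TRAIL (TNFSF10), had 3 probe sets, all lower in mean. The brightest (209295_at) read 121, 94.9 and 119 in DMSO and 51.6, 69.6 and 78.4 in tretinoin. The arrays did not overlap and the fall was 1.68-fold (log2 fold change -0.76 ± 0.20, adjusted p = 0.0232). This call did not hold when DMSO replicate 1 (adjusted p = 0.0731), DMSO replicate 3 (0.0716) or tretinoin replicate 1 (0.0602) was left out. A second probe set (209294_x_at) read 57.2, 67.7 and 75.7 in DMSO and 29.4 with the other two below 20 in tretinoin, at least 2.89-fold lower (adjusted p = 0.00128), and passed in every setting run that tested it. The third (210405_x_at) had a log2 fold change of -0.59 ± 0.25, with overlapping arrays, and did not pass (adjusted p = 0.116). It passed without scaling (adjusted p = 0.0400) and without tretinoin replicate 2 (0.0376).

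TNFRSF25, the receptor for TNFSF15 (216042_at), read 110, 124 and 85.0 in DMSO and 50.6, 90.7 and 60.0 in tretinoin. The highest tretinoin array exceeded the lowest DMSO array, and the log2 fold change of -0.69 ± 0.25 did not pass (adjusted p = 0.0779). It did pass with median scaling (adjusted p = 0.0398), without scaling (0.0117), with trend and robust variances (0.0378) and without tretinoin replicate 2 (0.0184). All other TNFRSF25 probe sets (210847_x_at, 211282_x_at, 211841_s_at and 219423_x_at) were below 20 on every array and were not tested. FAS, the receptor best known for inducing apoptosis in lymphocytes, had a log2 fold change of -0.07 ± 0.40 on its only tested probe set, with 2 arrays of each condition above 20. NGFR, the neurotrophin receptor, had no tested probe set. The decoys TNFRSF10C and TNFRSF10D and the soluble TNFRSF11B were likewise not tested, with no array above 29.5 on any of their 5 probe sets.

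Of 8 tested receptors without a death domain, TNFRSF9 and TNFRSF14 rose by their brightest probe set and CD40 by a dimmer one, and none fell. TNFRSF9, or CD137, the receptor for TNFSF9 (207536_s_at), read 25.5, 22.3 and below 20 in DMSO and 64.0, 75.0 and 91.1 in tretinoin. It was at least 3.40-fold higher (adjusted p = 0.000422), and the lowest tretinoin array stood well over the highest DMSO array. Another TNFRSF9 probe set (211786_at) was too dim to be tested. It exceeded 20 on 1 DMSO array (24.3) and 1 tretinoin array (30.0), and the conditions overlapped. TNFRSF14, the receptor for TNFSF14 (209354_at), was below 20 on all DMSO arrays and read 34.6, 29.5 and 51.4 in tretinoin, at least 1.92-fold higher (adjusted p = 0.0164). Without scaling its adjusted p was 0.0587.

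TNFRSF1B, the second TNF receptor, carried mainly by leukocytes (203508_at), read 142.4, 129.7 and 133.5 in DMSO and 185.5, 196.5 and 218.8 in tretinoin. The arrays did not overlap and the adjusted p was 0.0136, but the log2 fold change of 0.56 ± 0.13 was just short of the 1.5-fold minimum, so it was not called. The call was made without DMSO replicate 1 (log2 fold change 0.60) or tretinoin replicate 1 (0.62). LTBR, the receptor for lymphotoxin (203005_at), read 87.2, 81.7 and 71.4 in DMSO and 71.3, 108 and 64.7 in tretinoin, with a log2 fold change of -0.01 ± 0.22 whose sign turned under median scaling. The tretinoin arrays spanned the whole DMSO range. TNFRSF12A, the receptor for TWEAK (0.36 ± 0.34), TNFRSF13B, a receptor for APRIL and BAFF (-0.29 ± 0.17), and TNFRSF8, or CD30 (0.16 ± 0.24), had log2 fold changes that did not pass (adjusted p between 0.251 and 0.656). The sign for TNFRSF8 turned without scaling. CD27, TNFRSF4, TNFRSF11A and TNFRSF17 had no tested probe set.

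**Figure D2:**
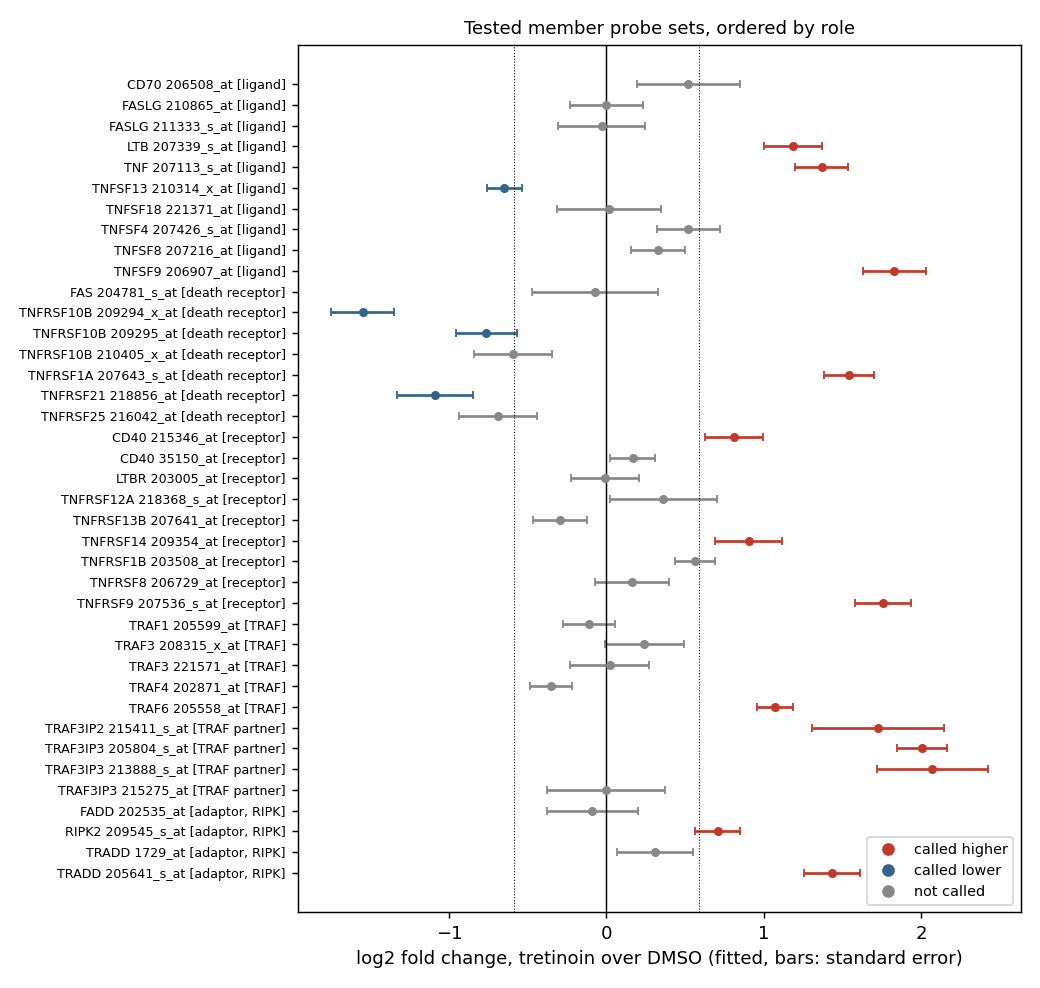
Fitted log2 fold change (tretinoin over DMSO, bars show SE) of the 39 tested member probe sets, ordered by role, red where called higher, blue where called lower and gray where not called, with dotted lines at 1.5-fold. The 4 blue points belong to TNFSF13, TNFRSF10B and TNFRSF21, and the furthest red points are both probe sets of TRAF3IP3. Values of probe sets that touch the floor depend on it.

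Set side by side, ligands and their receptors did not always share a call, and some ligands could not be tested. TNF and TNFRSF1A rose, and TNFRSF1B was also higher in mean but missed the fold minimum. TNFSF9 and TNFRSF9 both rose. LTB rose while LTBR had a log2 fold change near 0. TNFRSF14 rose while its ligand TNFSF14 was below 20 on every array and was not tested. TNFRSF10B fell while its ligand TNFSF10 had no tested probe set. TNFSF13 fell while TNFRSF13B, also lower in mean, did not pass (log2 fold changes -0.65 and -0.29). Neither FASLG nor FAS was called. No test compared a ligand with its receptor.

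Of 4 TRAF genes tested, TRAF6 was the only one called. TRAF6, a ubiquitin ligase that serves CD40 and also the interleukin-1 and Toll-like receptors (205558_at), read below 20, 20.3 and 21.1 in DMSO and 44.0, 43.4 and 41.6 in tretinoin. Tretinoin arrays were tightly grouped and all above the DMSO arrays, and TRAF6 was at least 2.10-fold higher (adjusted p = 0.000553). TRAF3, an inhibitor of the noncanonical NF-κB pathway, had log2 fold changes of 0.24 ± 0.25 and 0.02 ± 0.25 on its 2 probe sets (208315_x_at and 221571_at). The first read 60.0, 32.2 and 35.3 in DMSO and 45.9, 44.3 and 55.2 in tretinoin, so that all tretinoin arrays lay inside the DMSO range, and the sign of the second turned without scaling. TRAF1 had a log2 fold change of -0.11 ± 0.16. TRAF4, which acts in epithelial and developmental signaling (202871_at), read 27.3, 27.1 and 22.5 in DMSO and below 20 on every tretinoin array. It was at least 1.28-fold lower and did not pass with the floor of 20 (adjusted p = 0.0845). With a floor of 10 it passed (adjusted p = 0.000902), and likewise with 16 added to each signal instead of a floor (0.000849). TRAF5 was below 20 on every array.

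Both tested TRAF-interacting genes rose. TRAF3IP3, a coiled-coil protein that binds TRAF3, read below 20, 43.9 and 51.7 in DMSO and 158, 126 and 169 in tretinoin on its brightest probe set (213888_s_at), at least 3.91-fold higher (adjusted p = 0.00430). A second probe set (205804_s_at) was below 20 on all DMSO arrays and read 97.9, 69.3 and 76.1 in tretinoin, at least 4.06-fold higher (adjusted p = 0.000165). The third (215275_at) read 29.0, 29.8 and 48.3 in DMSO and below 20, 50.1 and 41.6 in tretinoin, with overlapping arrays and a log2 fold change of -0.00217 ± 0.37. TRAF3IP2, also called Act1, an adaptor of interleukin-17 receptors (215411_s_at), read 51.0, 63.7 and 20.3 in DMSO and 121, 169 and 116 in tretinoin. Its 3.01-fold rise had a log2 fold change of 1.72 ± 0.42 and an adjusted p of 0.0186. Without tretinoin replicate 2 the log2 fold change was 1.55 and the adjusted p 0.0570, and without the filter on low signals the adjusted p was 0.119. TRAF3IP1 was below 20 on every array.

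RIPK2 and 1 probe set of TRADD rose among the death domain adaptors and RIP kinases. RIPK2, the kinase of NOD receptor signaling (209545_s_at), read 88.1, 87.5 and 71.8 in DMSO and 124, 134 and 145 in tretinoin. The arrays did not overlap, and the rise was 1.63-fold (log2 fold change 0.71 ± 0.14, adjusted p = 0.00859). Without scaling it was not called (adjusted p = 0.163). FADD, which links death receptors to caspases (202535_at), read 45.1, 90.7 and 70.3 in DMSO and 67.3, 74.3 and 47.7 in tretinoin, with all tretinoin arrays inside the DMSO range.

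**Figure D3:**
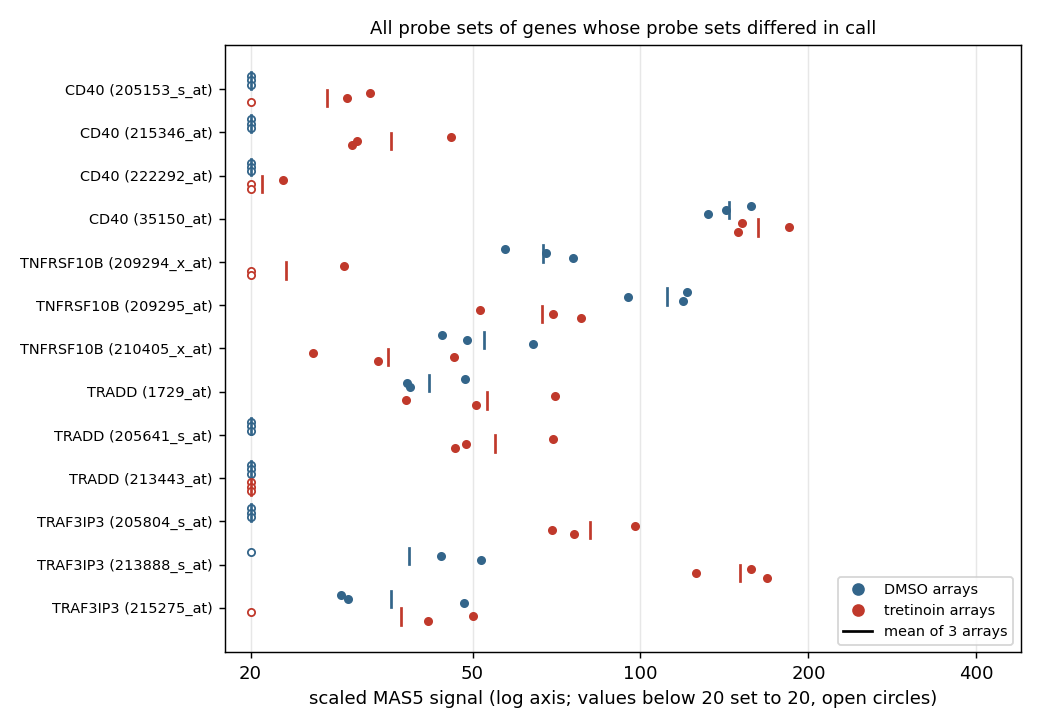
Scaled MAS5 signal on each array (log axis) for every probe set of CD40, TNFRSF10B, TRADD and TRAF3IP3, the 4 genes whose tested probe sets differed in call, with DMSO in blue, tretinoin in red, bars at means of 3 arrays and open circles at the floor of 20. CD40 overlaps between conditions on 35150_at and separates on 215346_at, where every DMSO array lies at the floor.

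For CD40, TRADD, TNFRSF10B and TRAF3IP3 the call differed between tested probe sets. The called genes TNFRSF9, TNFRSF21, TRAF3IP2 and RIPK2 each had another probe set that was too dim to be tested. CD40, the costimulatory receptor of antigen-presenting cells, read 158, 142 and 132 in DMSO and 152, 184 and 149.6 in tretinoin on its brightest probe set (35150_at). These overlapped, with a log2 fold change of 0.17 ± 0.14 (adjusted p = 0.442) whose sign turned without scaling. A dimmer CD40 probe set (215346_at) was below 20 on all DMSO arrays and read 45.7, 31.1 and 30.4 in tretinoin, at least 1.79-fold higher (adjusted p = 0.0137, and 0.0698 without scaling). TRADD, the adaptor that TNFRSF1A recruits first, read 48.5, 38.1 and 38.6 in DMSO and 70.4, 38.1 and 50.8 in tretinoin on its brightest probe set (1729_at), which did not pass (adjusted p = 0.384). On 205641_s_at it was below 20 on every DMSO array and read 69.6, 48.7 and 46.6 in tretinoin, at least 2.75-fold higher (adjusted p = 0.00106). CD40 205153_s_at was below 20 in DMSO and read 32.7, 29.7 and below 20 in tretinoin. Like 222292_at of CD40 and 213443_at of TRADD, it was not tested. The array does not tell which transcripts each probe set detected.

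In all, 15 of the 46 genes had no tested probe set, and their highest signal on any array was 30.5. For these the arrays give only an upper bound, and a change below the floor was not detectable.

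In a list of signaling partners, more genes were called higher than lower. Besides genes downstream of the receptors, the list took in the sheddases ADAM10 and ADAM17, LITAF and genes induced by TNF such as TNFAIP2. It was chosen with earlier results of these data known, so its counts are a description and were not tested against the background. Of 48 listed signaling partners, 42 had a probe set of their own and 39 were tested by the brightest one. By limma 16 were higher, where the background for genes was 13.6%, and 2 were lower, where it was 14.4%. The median log2 fold change was 0.40 against -0.04 over all tested genes. By these brightest probe sets, the largest rise was in NFKBIA. NFKBIA, the inhibitor that holds NF-κB in the cytoplasm, rose 5.83-fold from 60.6 ± 8.22 to 353 ± 57.7 (SD, n = 3). TNFAIP3, a deubiquitinase that limits TNF signaling, rose 3.33-fold from 69.3 ± 9.47 to 231 ± 20.6. NFKBIE, a related inhibitor, rose 2.92-fold and TNFAIP2, a gene induced by TNF, rose 2.87-fold. BIRC2, a ubiquitin ligase of the TNF receptor complex, rose 2.46-fold. These 5 had adjusted p-values between 0.000102 and 0.00503 and passed in every setting run.

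The other 11 partners called higher were the NF-κB subunits NFKB1, RELB and REL, the regulators TANK, TBK1, TNIP1 and CYLD, the cell death genes CASP8 and CFLAR, the sheddase ADAM10 and LITAF, a gene named for its induction by lipopolysaccharide. The calls differed between tested probe sets for 4 partner genes. The brightest REL probe set (206036_s_at) was below 20 on all DMSO arrays, and so was tested through its tretinoin arrays alone. The other (206035_at) overlapped between conditions and did not pass (adjusted p = 0.359). TANK likewise had a dimmer probe set that did not pass (209451_at, adjusted p = 0.121), and IKBKG a dimmer one that rose while its brightest did not pass. Lower were RBCK1, a subunit of the linear ubiquitin ligase, at 1.67-fold (adjusted p = 0.0127), and TNFAIP8 at 1.55-fold (adjusted p = 0.0297). On this probe set (208296_x_at) the call for TNFAIP8 was lost when DMSO replicate 1 or 3 or any tretinoin replicate was left out (adjusted p between 0.0581 and 0.0876). Its other tested probe set (210260_s_at) was also called, 1.80-fold lower with no overlap (adjusted p = 0.00658). By their brightest probe sets RELB, CYLD, TNIP1 and TBK1 each lost their call without at least 1 array, RELB for example without DMSO replicate 2 (adjusted p = 0.0608), CYLD without tretinoin replicate 2 (0.0922) and TNIP1 without tretinoin replicate 1 (0.110). Over all settings that tested these probe sets, the call was lost in 12 of 19 for TNIP1 and 8 of 19 for CYLD. It was lost in 8 of 18 for RELB and 4 of 19 for TBK1. All 4 other tested probe sets of CYLD were called higher too, the largest of them (221903_s_at) at least 5.18-fold (adjusted p = 3.2e-05). TBK1 was short of the fold minimum without tretinoin replicate 1 (log2 fold change 0.54). Without scaling, TANK, CASP8, TBK1 and TNIP1 did not pass (adjusted p between 0.0525 and 0.306). RELA, the best known activating subunit, did not pass (log2 fold change 0.33 ± 0.15, adjusted p = 0.140). The same was true of the kinases CHUK and IKBKB, with log2 fold changes of -0.26 and 0.05. ADAM17, the sheddase that releases TNF from the cell surface, had a log2 fold change of 0.48 ± 0.17 on its brightest probe set, which did not pass (adjusted p = 0.0729). Both its other tested probe sets rose, 205746_s_at at least 2.01-fold (adjusted p = 0.00384) and 213532_at 1.60-fold (adjusted p = 0.0173).

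**Figure D4:**
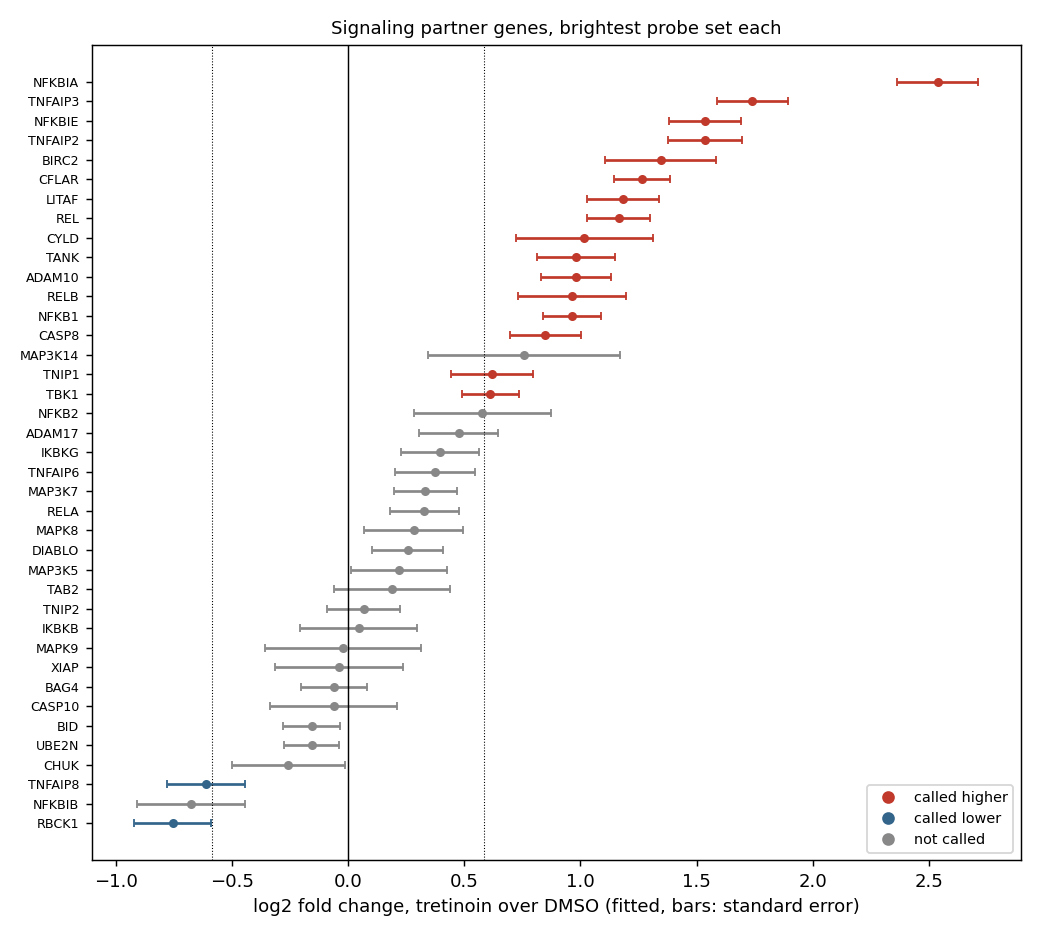
Fitted log2 fold change (tretinoin over DMSO, bars show SE) of the 39 tested signaling partner genes by their brightest probe set, red where called higher, blue where called lower and gray where not called, with dotted lines at 1.5-fold. NFKBIA lies furthest right, and the 2 blue points are RBCK1 and TNFAIP8.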

How the data were processed

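The authors hybridized 3 HG-U133A arrays per condition and deposited linear signal intensities, not yet scaled between arrays. The submitters' processing notes name MAS5, and its version is not given in the sources used here. Following the study's methods, each array was multiplied here to the mean of DMSO replicate 1 (factors 0.820 to 1.36) and values below 20 were set to 20. Log2 values were fitted with limma 3.58.1 (R 4.3.3) with a mean per condition, over all probe sets above 20 on at least 3 arrays, with Benjamini-Hochberg adjustment. Folds are ratios of condition means, and lower bounds where an array of the dimmer condition was at the floor. Probe sets carried gene names from the platform annotation (19071 with one gene, 1043 with several, 2169 with none). Values above 20 on each array are given for called member probe sets and for some of those not called. RELA, CHUK, IKBKB and ADAM17 were named after their values were seen. Members, lists and settings were chosen with earlier results of these data known. The fit was also run on simulated data, with changes planted only in probe sets well above the floor in DMSO. That run does not cover members near the floor. Alternatives were other scalings, floors, filters, variances and fold minimums, a replicate block and each array left out. The number of arrays limits precision. An exact permutation test of 3 arrays against 3 cannot go below p = 0.1, so none was used. Python 3.11.15, pandas 2.3.3 and matplotlib 3.10.9 were used.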

Additional observations from a re-analysis of the deposited data

How the results depend on the processing

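TNF, TNFSF9, TNFRSF1A, TNFRSF9, both called TRAF3IP3 probe sets and 209294_x_at of TNFRSF10B kept their call in every setting that tested them. TNF, TNFSF9 and TNFRSF1A were tested in 19 settings, and TNFRSF9, 213888_s_at of TRAF3IP3 and 209294_x_at in 18. The other TRAF3IP3 probe set (205804_s_at) was tested in 15. It was below 20 on all DMSO arrays, so leaving out any tretinoin array removed it from the test. Restricting the test to probe sets above 20 on all arrays left 20 member probe sets. Of these 5 were higher and 1 lower, with 6 genes called. That filter takes out every probe set with any array at the floor. A floor of 40 gave 8 higher and 1 lower, 7 genes and 1 partner lower. Without the filter, 2 members and 1 partner were lower. With an offset of 16, 1 partner was lower. With a fold minimum of 2, 2 members were lower, 9 partners were higher and 0 lower, and 1012 and 860 of all probe sets were higher and lower. Without scaling, 1142 of all probe sets were higher. With each array left out in turn, members called higher numbered 8 to 14, members lower 1 to 6, genes 10 to 12, partners higher 12 to 15, partners lower 1 to 2, and all probe sets 1442 to 1734 higher and 1521 to 1967 lower. Leaving out tretinoin replicate 2 gave the 8, since 4 probe sets at the floor on all DMSO arrays could then not reach 3 arrays above 20 and TRAF3IP2 lost its call, and it gave the 6. Leaving out DMSO replicate 1 or 3 gave the 1, since TNFSF13 and TNFRSF21 were then not tested and 209295_at of TNFRSF10B lost its call. Without the filter, CD40 (215346_at), TNFRSF14 and TNFRSF10B (209295_at) had adjusted p-values of 0.0573, 0.0787 and 0.0907 by limma. The other causes were not tested.

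The titles number arrays 1 to 3 in both conditions. Deviations of same-numbered arrays from their condition means correlated at -0.03, -0.01 and 0.07 across probe sets. Those of differently numbered arrays correlated at -0.06 to 0.07. This cannot show whether same-numbered arrays were handled together, and the numbers were not taken to pair them. With the number as a replicate block, members stayed at 13 higher and 4 lower in count, and partners at 13 higher and 1 lower.

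Members not called changed sign in log2 fold change as follows. With a floor of 40, FASLG (211333_s_at) had 0.00604, FAS 0.0417, TRAF3 (221571_at) -0.0433 and TRAF3IP3 (215275_at) 0.0356. With median scaling LTBR had 0.00268. Without scaling TNFSF18 had -0.21, CD40 (35150_at) -0.0367, TNFRSF8 -0.0389 and TRAF3 -0.18. TNFSF18 had -0.10 with the offset, -0.00335 with quantile normalization and -0.00661 with trimmed mean scaling, where TRAF3 had -0.00386. FASLG (210865_at) had 0.00166 with quantile normalization. With 1 array left out, the range was -0.36 to 0.14 for FADD, -0.47 to 0.22 for FAS, -0.24 to 0.16 and -0.30 to 0.21 for FASLG (210865_at and 211333_s_at), -0.23 to 0.14 for LTBR, -0.0410 to 0.59 for TNFRSF12A, -0.0292 to 0.40 for TNFRSF8, -0.14 to 0.18 for TNFSF18, -0.20 to 0.21 for TRAF3 and -0.27 to 0.39 for TRAF3IP3 (215275_at).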
